A study of Mus musculus with 27 samples.

Results

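The 6 arrays of cerebellar tumours from hGFAP-cre:SmoM2 mice were set against the 6 arrays of cerebellar tissue labelled as non-tumour, 12 of the 27 arrays of the series. Members were taken by their titles, with no use of measured values. SmoM2 is a form of Smoothened that signals without ligand, and in these mice it is switched on by a Cre recombinase driven from the human GFAP promoter, which is active in neural stem and radial glial cells. The non-tumour arrays came from several lines: 2 from Olig2-tva-cre:SmoM2 mice, 1 from hGFAP-cre:SmoM2 mice, 2 from Mxi1-cre:SmoM2 mice and 1 from a Ptc1+/- mouse, which lacks 1 working copy of the Hedgehog receptor gene. The SmoM2 allele is therefore named for all tumours and for 5 of the 6 non-tumour arrays, and whether the non-tumour tissue held recombined cells, the ages of the mice and the number of mice per array are not given in the sources used here. The 13 tumours of 3 other SmoM2 lines (3 Math1-cre, 3 Tlx3-cre and 7 Olig2-tva-cre) and 2 Ptc1+/- tumours shared the model's estimate of spread. The 13 were also compared with the hGFAP tumours, at the end.

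In the developing cerebellum, Sonic hedgehog released by Purkinje cells binds Patched on granule neuron precursors, frees Smoothened, and turns on the Gli transcription factors, which raise cyclin D and Mycn and keep the precursors dividing. The precursors normally leave the cycle, migrate inward and mature into granule neurons, the most numerous neurons of the brain. Medulloblastomas of the Hedgehog class keep this programme on, and the series addresses whether tumours started in different cells take on granule precursor identity.

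Total RNA was hybridised to Affymetrix mouse arrays, on which each gene is read by 1 or more probe sets near its 3' end. Signals are given as log2 of the rescaled signal, with a floor at 3.37, and a called gene is one with a Benjamini-Hochberg adjusted p under 0.05 in limma over 13527 genes. The 2% trimmed mean of the deposited signals was 74.1 to 152.9 in tumours and 117.9 to 161.0 in non-tumour tissue, so arrays were scaled to a common value. The ratio of the 3' to the 5' control probe sets of Gapdh and Actb, which rises as RNA degrades, averaged 1.05 ± 0.60 in tumours and 0.62 ± 0.58 in non-tumour tissue (log2, SD, n = 6 each), a difference of 0.43 (two-sided exact permutation p = 0.208, the smallest possible being 0.00216). It exceeded 1.2 in tumours 4 (1.88) and 6 (1.67) and in non-tumour array 1 (1.75). As each of the 12 arrays was left out in turn, the difference was 0.27 (without tumour 4) to 0.66 (without that non-tumour array). The exact permutation p ranged from 0.0390 to 0.422. The p of 0.0390 came without that non-tumour array, with both tumours of high ratio kept. Gapdh alone gave 0.80 (exact permutation p = 0.0758) and Actb alone 0.07 (exact permutation p = 0.848). Tumour 4 was also the dimmest of the 12 arrays. Tumours were less alike than non-tumour arrays: pairwise Pearson correlations across genes were 0.827 to 0.942 among tumours, 0.921 to 0.961 among non-tumour arrays and 0.694 to 0.793 between the groups, and the median SD of a gene was 0.452 in tumours and 0.305 in non-tumour tissue. The labelled tissue was checked against its markers. All 6 granule neuron markers, all 4 Purkinje cell markers that were tested (Pcp2, Calb1, Car8 and Slc1a6) were above the floor on every non-tumour array. Of hindbrain genes, En2 (9.69 to 10.06) and Irx2 (5.17 to 6.02) were above it on every non-tumour array, En1 was at the floor on 1, and Hoxa2, Gbx2 and Pax2 did not pass the filter on low signals or were not listed. Of forebrain genes, Neurod6 (4.17 to 5.51) was also above the floor on every non-tumour array, while Emx1, Emx2 and Tbr1 did not pass the filter or were not listed.

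Between the 2 groups 5645 genes were called (41.7% of those tested), 3043 higher (22.5%) and 2602 lower (19.2%) in tumours, and the median difference over all genes was 0.11. At least 2-fold differences were called for 1692 higher genes (12.5%) and 1648 lower genes (12.2%). All 6 tumours lay above all 6 non-tumour arrays for 1693 genes (12.5%) and below them for 1699 (12.6%). The split depended on the scaling: 983 genes were higher and 3045 lower with the deposited values, where the median of all genes shifted by -0.45, and 2294 were higher and 2943 lower with arrays set to a common median, where it shifted by -0.14. Among the genes named here with a call, those that lost it with the deposited values included En1, Olig3, Grm5, Gas1, Ptch1, Gli3, Nfix, H2-Aa and Kdr. Among called genes whose arrays did not overlap, the highest differences were those of Insm1 (7.45), a zinc finger factor of dividing neural precursors, Sox11 (6.97), a factor of immature neurons, Cd24a (6.18), a surface protein of immature neurons, the kinase gene Cdk6 (6.12) and Tox3 (6.01). The lowest were Slc1a6 (-5.32), the glutamate transporter of Purkinje cells, Tesc (-4.80), Vsnl1 (-4.76), a neuronal calcium sensor, Rnf112 (-4.50) and Pcp2 (-4.48). Because this is bulk RNA, fewer cells of a type and less RNA per cell cannot be told apart in any of these differences.

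**Figure D1:**
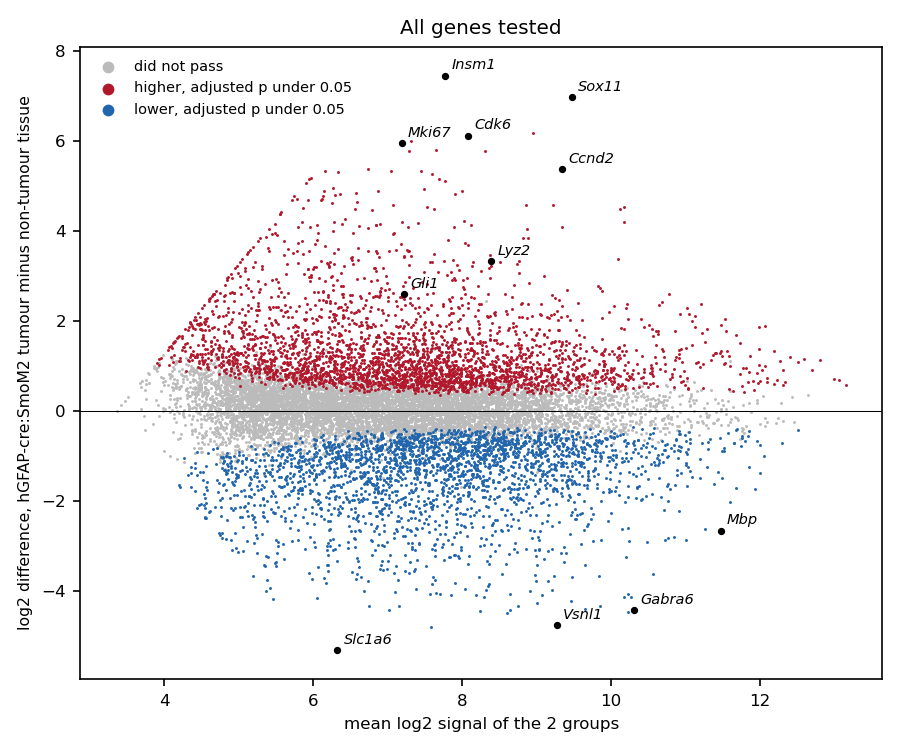
Log2 difference of the tumours from non-tumour tissue (vertical axis) against the mean log2 signal of both groups (horizontal axis), 1 point per gene tested, coloured by call. Called genes lie on both sides of 0, and Insm1 (7.45) and Slc1a6 (-5.32) are the extremes. The straight upper left edge is made by genes whose non-tumour arrays sit at the floor.

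Of 16 genes on a list of Hedgehog outputs, which also holds the repressor gene Gli3 and the co-receptor gene Boc, 11 rose in the tumours and 0 fell, with a median difference of 1.62 against 0.11 over all genes, and 9 of them had no overlap between the groups. Gli1, the transcription factor that is itself the standard readout of the pathway, had 6.36, 8.89 and 9.47 (lowest, median and highest) in tumours, against 5.47, 5.98 and 6.27 in non-tumour tissue (2.59 ± 0.36 (SE), adjusted p = 9.65e-07). Its lowest tumour was tumour 4, at 6.36, while the other 5 were 8.43 or above, and without that tumour the difference was 3.03. Ccnd2, the cyclin through which precursors enter the cycle, had 11.34, 11.96 and 12.83 in tumours and 5.97, 6.47 and 7.70 in non-tumour tissue (5.38 ± 0.26 (SE), adjusted p = 1.43e-15). Mycn, the Myc factor that Hedgehog induces in precursors, had 8.49, 10.19 and 10.69 in tumours and 5.01, 5.80 and 6.96 in non-tumour tissue (4.09 ± 0.39 (SE), adjusted p = 1.15e-09). The groups were apart for all 3 genes. Sfrp1, a secreted inhibitor of Wnt, was even over the tumours, at 10.24 to 10.63, against 4.89 to 6.44 in non-tumour tissue (4.89, adjusted p = 2.64e-15). Pdlim3 (4.69, a lower bound with 3 non-tumour arrays at the floor), Sox18 (3.32) and Ccnd1 (2.12) also rose.

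Both negative regulators that Hedgehog switches on and that were tested rose. Ptch1, the receptor, was already at 9.93 to 10.58 in non-tumour tissue and reached 10.62 to 12.25 in tumours (1.13 ± 0.23 (SE), adjusted p = 1.51e-04). Its call was lost with the probe set of largest variance (0.01, adjusted p = 0.994) and with the deposited values (0.69, adjusted p = 0.162). Of the non-tumour arrays, 1 came from a Ptc1+/- mouse, which lacks 1 working copy of this gene. The call was kept without that array. Hhip, which binds and removes the ligand, had 6.86, 7.31 and 8.54 in tumours, against 3.80, 5.47 and 6.96 in non-tumour tissue (2.10, adjusted p = 1.30e-04), and the groups overlapped at 1 non-tumour array. Of the members that did not pass, Igf2 differed by 0.81 (1.25 and adjusted p = 4.37e-03 without tumour 1), Nkx2-2, a target in ventral neural tube, by -0.09 and Foxf1 by -0.25.

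Among the 18 tested components of the pathway, 10 rose and 2 fell. Gli2, the main activator, had 8.30, 9.17 and 9.48 in tumours and 3.57, 5.54 and 6.97 in non-tumour tissue (3.55 ± 0.36 (SE), adjusted p = 5.20e-09). Smo itself had 7.93, 8.38 and 8.85 in tumours and 6.76, 6.94 and 7.27 in non-tumour tissue (1.41, adjusted p = 3.32e-07). Whether its probe set reads the SmoM2 transcript was not tested. Sufu, the inhibitor that holds Gli proteins, was 8.43 to 9.41 in tumours and 6.69 to 7.57 in non-tumour tissue (1.85, adjusted p = 1.55e-09), and Gpr161, the cilium receptor that opposes the pathway, rose by 1.56. Kif7 (2.28) and Evc (2.11), both of the primary cilium, rose as well, Kif7 as a lower bound with 5 of 6 non-tumour arrays at the floor. The co-receptors for Hedgehog ligand, of which Boc is counted with the outputs, parted: Cdon fell to 5.31 to 6.33 in tumours, against 7.77 to 8.16 in non-tumour tissue (-2.14, adjusted p = 1.44e-08), Gas1 rose by 0.80 (adjusted p = 6.92e-04, but 0.508 with the deposited values), and Boc differed by 0.45 (adjusted p = 0.0977), gaining a call under 7 of 32 alternatives, among them leaving out tumour 4 (0.62, adjusted p = 0.0159). Spop, an adaptor that sends Gli proteins for destruction, fell to 8.18 to 9.25 in tumours, against 9.81 to 10.73 in non-tumour tissue (-1.54, adjusted p = 6.94e-08). Gli3, the chief repressor, also counted with the outputs and not among the 18, rose by 0.88 (adjusted p = 0.0238), a call lost under 6 alternatives that kept more than 1 non-tumour array, among them leaving out tumour 3 (adjusted p = 0.0574) or tumour 5 (0.0581).

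**Figure D2:**
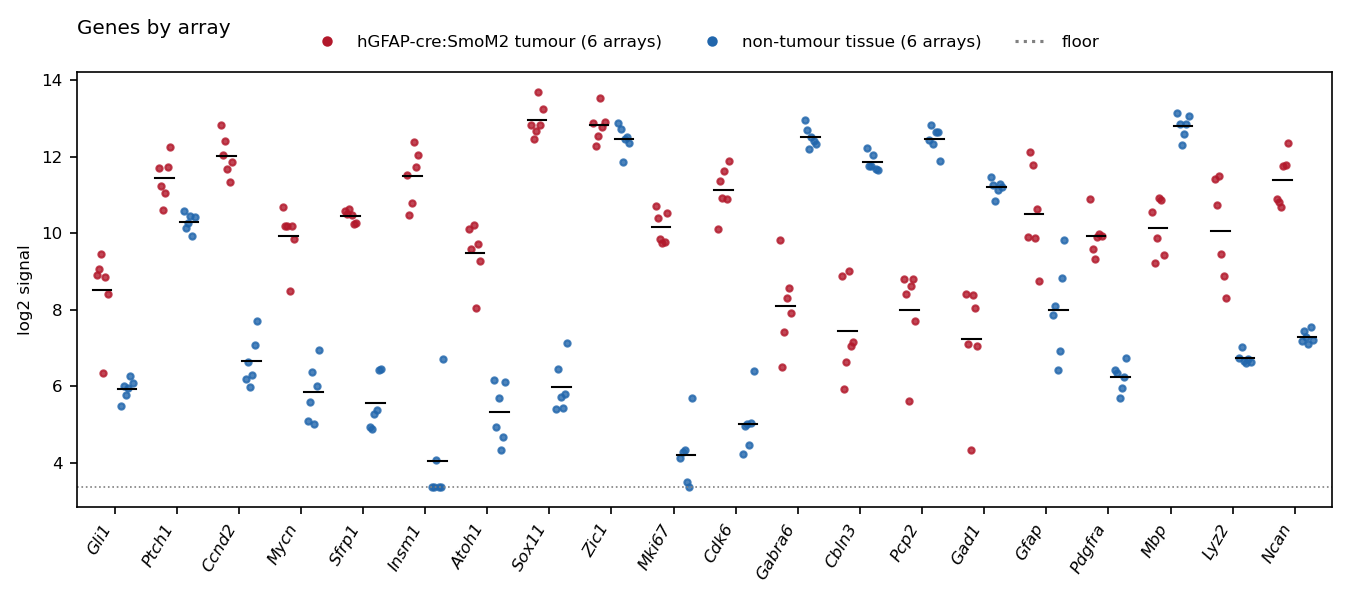
Log2 signal (vertical axis) of 20 genes on each array, hGFAP-cre:SmoM2 tumours in red and non-tumour tissue in blue; bars are group means and the dotted line is the floor at 3.37. Red and blue points do not overlap for Gli1, Ccnd2, Mycn, Insm1, Mki67 or Gabra6, while Zic1 (0.35) overlaps, and single low tumours stand out for Gli1 (6.36) and Gad1 (4.33).

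Granule precursor genes rose as well: 12 of 18 were higher and 0 lower, with a median of 1.78. Atoh1, the factor that specifies the granule lineage, had 8.05, 9.66 and 10.22 in tumours, against 4.34, 5.32 and 6.15 in non-tumour tissue (4.17 ± 0.40 (SE), adjusted p = 1.40e-09). Insm1 was at 10.48, 11.64 and 12.40 in tumours and at the floor on 4 of 6 non-tumour arrays, so its difference of 7.45 (adjusted p = 4.91e-14) is a lower bound. The highest non-tumour array was the Ptc1+/- one, at 6.73. Barhl1, a homeobox gene of the lineage, had 8.70, 9.76 and 11.14 in tumours and 5.07, 5.78 and 6.74 in non-tumour tissue (3.79, adjusted p = 5.57e-09). Cxcr4, the chemokine receptor that holds precursors under the pia, was 9.55, 8.66, 9.09, 6.85, 9.98 and 9.37 in tumours 1 to 6, against 4.19 to 5.52 in non-tumour tissue (4.14, adjusted p = 2.05e-09), with tumour 4 the lowest. Nhlh1, which marks precursors leaving the cycle, was 8.70 to 9.12 in tumours and 3.37 to 5.43 in non-tumour tissue (4.16, adjusted p = 1.25e-13).

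The 6 members that did not pass included genes that mature granule neurons also express. Zic1 had 12.28, 12.84 and 13.54 in tumours and 11.87, 12.49 and 12.88 in non-tumour tissue (0.35, adjusted p = 0.183). Pax6 differed by 0.72 (adjusted p = 0.0604) with tumour 2 at 7.22, below every non-tumour array, and the other 5 tumours at 8.74 or above; without tumour 2 the difference was 1.07 (adjusted p = 7.11e-04). Neurod1 differed by -0.15, Zic2 by -0.49 and Barhl2 by -0.47.

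Transcription factors of immature neurons were also higher. Sox11 had 12.47, 12.83 and 13.70 in tumours, against 5.41, 5.75 and 7.12 in non-tumour tissue (6.97 ± 0.42 (SE), adjusted p = 1.23e-13), and Sox4 had 11.65, 12.34 and 12.64 in tumours and 7.63, 8.19 and 8.44 in non-tumour tissue (4.20, adjusted p = 3.91e-15). In all 7 of 11 Sox genes rose and none fell (3 higher with the deposited values), while Sox2, the stem cell member, differed by 0.42 (adjusted p = 0.186). Of the nuclear factor I genes, which time granule neuron maturation, Nfib (2.41) and Nfia (1.87) rose, Nfix differed by 0.90 (adjusted p = 0.0217, lost under 7 alternatives that kept more than 1 non-tumour array, among them leaving out tumour 4 or tumour 6), and Nfic by -0.21 (adjusted p = 0.509). The 16 genes tested from migrating granule neurons divided, with 7 higher (43.8%, against 22.5% of all genes tested) and 5 lower (31.2%, against 19.2%). With the deposited values 5 were higher and 5 lower. Those that rose included Dcx (5.11), the microtubule protein of migrating neurons, the netrin receptor gene Dcc (5.79) and Robo2 (2.14), while the netrin receptor genes Unc5b (-1.94) and Unc5c (-1.08), the adhesion gene Cntn1 (-1.38) and Stmn2 (-1.14) fell. Of 17 tubulin and microtubule genes 6 rose (35.3%, against 22.5% of all genes tested) and 5 fell (29.4%, against 19.2%). Tubb2b, of growing neurons, rose by 2.29, and Tuba4a fell to 8.33 to 9.29 in tumours, against 11.09 to 12.06 in non-tumour tissue.

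Genes of the rhombic lip outside the granule lineage, and of other regions, were also higher. Pou4f1, a sensory and brainstem neuron factor, had 7.55, 8.82 and 9.92 in tumours, against 3.37, 3.91 and 4.66 in non-tumour tissue (4.82, adjusted p = 7.14e-12). Lhx2 was at the floor on all 6 non-tumour arrays and 5.81 to 7.20 in tumours, a difference of at least 3.21 (adjusted p = 3.24e-12). Otx2, a homeobox gene of forebrain, midbrain and posterior rhombic lip, had 7.32, 8.01, 8.99, 10.27, 8.11 and 8.36 in tumours 1 to 6, against 5.21 to 6.75 in non-tumour tissue (2.36, adjusted p = 2.65e-06). Neurod6, a gene of forebrain pyramidal neurons, had 7.10, 8.03 and 8.46 in tumours and 4.17, 4.94 and 5.51 in non-tumour tissue (3.06, adjusted p = 3.61e-10). Eomes, the marker of unipolar brush cells, fell to 5.25 to 6.45 in tumours, against 6.63 to 7.64 in non-tumour tissue (-1.25, adjusted p = 2.53e-03). Of the 12 genes on the rhombic lip list 10 were on the arrays, 6 passed the filter on low signals and 4 of these rose. The filter asked for signal above the table's median on at least 3 of the 27 arrays. Lhx2 could pass it only through tumour arrays, so this share is partly set by the filter. The midbrain and hindbrain genes En1 and En2 parted, at 1.38 (adjusted p = 8.53e-03) and -1.44 (adjusted p = 2.73e-05).

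Genes of the dividing cell were higher throughout the tumours: 25 of 26 mitosis genes and 25 of 26 DNA replication genes rose and none fell, with medians of 3.83 and 2.59. Mki67, the proliferation antigen, had 9.75, 10.13 and 10.71 in tumours, against 3.37, 4.20 and 5.69 in non-tumour tissue (5.96 ± 0.28 (SE), adjusted p = 1.43e-15). Top2a, the mitotic topoisomerase, had 9.24, 10.24 and 10.94 in tumours and 3.54, 4.21 and 6.40 in non-tumour tissue (5.79, adjusted p = 1.14e-13), and Cdk1, the mitotic kinase, had 9.29, 10.37 and 10.89 in tumours and 4.48, 5.08 and 6.09 in non-tumour tissue (5.15, adjusted p = 9.51e-15). Of the replication genes, Rrm2, which makes deoxynucleotides, had 9.63, 11.48 and 11.73 in tumours and 4.47, 5.36 and 6.24 in non-tumour tissue (5.79, adjusted p = 2.20e-14). Mcm6, a subunit of the replicative helicase, had 9.01, 9.21 and 9.80 in tumours and 3.37, 4.33 and 6.22 in non-tumour tissue (4.89, adjusted p = 7.10e-13), with 2 non-tumour arrays at the floor. Pcna, the sliding clamp, rose by 2.38. The members that did not pass were Tpx2 (0.51, adjusted p = 0.0639), a spindle factor, which rose by 4.06 (adjusted p = 1.58e-11) when read by its most variable probe set and gained a call under 8 of 32 alternatives, and Fen1 (0.17, adjusted p = 0.652), which rose by 1.37 (adjusted p = 3.83e-05) when read by its most variable probe set.

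The summed signal of the 26 mitosis genes was 7641 to 18578 in tumours, against 736 to 1549 in non-tumour tissue. Tumour 4, the array with the highest 3' to 5' ratio, was the lowest tumour for 25 of the 26 mitosis genes and for 15 of the 26 replication genes, and without the arrays of high ratio 25 mitosis and 24 replication genes were still called higher. In non-tumour tissue the Ptc1+/- array was the highest for 17 mitosis and 18 replication genes, with Mki67 at 5.69 and Top2a at 6.40, still below every tumour.

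Mitosis and replication genes are known to carry different control elements in their promoters. The mitosis genes are repressed in resting cells through the CHR element and bound by NF-Y at CCAAT boxes, and the replication genes through E2F sites. In the RefSeq promoters (GRCm38.p6, 250 bases before to 50 after the start), the CHR letters TTTGAA were found on either strand in 15 of 21 mitosis genes with a promoter listed (71.4%), against 14.5% of the 10899 genes tested that have one and 20.2% of all 27025. CCAAT was found in 18 of 21 mitosis genes (85.7%), against 42.5% of genes tested, and both together in 15 (71.4%), against 6.89%. The E2F letters TTTCGCGC or TTTGGCGC were in 10 of 22 replication genes (45.5%) and 1 of 21 mitosis genes, against 1.76% of genes tested. The Gli consensus GACCACCCA was in 0 of the 8 Hedgehog output genes with a promoter listed and in 0.248% of genes tested. Its absence from these windows says only that those letters are not there. None of these shares was tested.

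The 3 mitosis genes with the largest differences among those with a single window that holds both elements are shown with CCAAT (or ATTGG, its other strand) and TTTGAA (or TTCAAA) in capitals. Mki67 lies at chr7:135716330-135716629 (minus strand), Top2a at chr11:99024140-99024439 (minus strand) and Cdk1 at chr10:69352863-69353162 (minus strand).
Mki67: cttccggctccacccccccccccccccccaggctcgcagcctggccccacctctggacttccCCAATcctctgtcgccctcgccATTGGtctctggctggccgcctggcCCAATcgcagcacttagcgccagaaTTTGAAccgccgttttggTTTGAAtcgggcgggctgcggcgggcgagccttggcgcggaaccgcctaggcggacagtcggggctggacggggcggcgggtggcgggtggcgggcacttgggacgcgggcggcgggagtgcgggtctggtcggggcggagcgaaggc
Top2a: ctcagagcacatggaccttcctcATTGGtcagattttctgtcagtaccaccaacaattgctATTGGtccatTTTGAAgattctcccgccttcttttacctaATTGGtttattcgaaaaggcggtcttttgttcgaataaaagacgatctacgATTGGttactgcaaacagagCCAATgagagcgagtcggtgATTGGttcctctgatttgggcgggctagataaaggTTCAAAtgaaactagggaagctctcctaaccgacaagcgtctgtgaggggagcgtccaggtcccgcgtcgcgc
Cdk1: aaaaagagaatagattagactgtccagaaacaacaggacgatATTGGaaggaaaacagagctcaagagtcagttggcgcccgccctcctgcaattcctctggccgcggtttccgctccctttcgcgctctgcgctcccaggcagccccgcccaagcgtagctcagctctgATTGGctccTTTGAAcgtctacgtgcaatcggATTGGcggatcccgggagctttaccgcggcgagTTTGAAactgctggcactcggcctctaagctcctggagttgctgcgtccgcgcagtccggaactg
The 3 replication genes with the largest differences among those with a single window that holds the E2F letters, all helicase subunits, are shown with these in capitals, on either strand and joined where they overlap. Mcm6 lies at chr1:128359656-128359955 (minus strand), Mcm5 at chr8:75109259-75109558 (plus strand) and Mcm3 at chr1:20820263-20820562 (minus strand).
Mcm6: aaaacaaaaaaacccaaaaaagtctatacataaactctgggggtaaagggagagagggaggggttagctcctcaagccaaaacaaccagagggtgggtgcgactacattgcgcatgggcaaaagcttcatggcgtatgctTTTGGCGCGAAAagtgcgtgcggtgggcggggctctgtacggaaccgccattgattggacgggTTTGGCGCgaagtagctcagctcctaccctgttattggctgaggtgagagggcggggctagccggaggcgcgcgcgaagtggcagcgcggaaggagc
Mcm5: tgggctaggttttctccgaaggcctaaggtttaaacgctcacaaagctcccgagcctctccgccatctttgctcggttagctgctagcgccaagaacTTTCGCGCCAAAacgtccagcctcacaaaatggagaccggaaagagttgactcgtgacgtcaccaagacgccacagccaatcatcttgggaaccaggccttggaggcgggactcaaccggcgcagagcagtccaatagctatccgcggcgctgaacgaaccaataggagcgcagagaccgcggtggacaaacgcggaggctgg
Mcm3: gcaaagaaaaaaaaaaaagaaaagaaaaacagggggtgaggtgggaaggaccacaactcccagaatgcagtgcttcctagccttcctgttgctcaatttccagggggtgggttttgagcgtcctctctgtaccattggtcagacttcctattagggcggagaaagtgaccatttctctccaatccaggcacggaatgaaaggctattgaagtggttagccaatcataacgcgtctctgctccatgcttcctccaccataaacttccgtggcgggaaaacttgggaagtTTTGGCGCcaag
The first 3 genes rose by 5.96, 5.79 and 5.15, and the 3 helicase genes by 4.89, 3.46 and 3.01.

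The machinery that starts the cycle moved with it: 17 of 22 cyclins, kinases, E2F factors and inhibitors rose and none fell. Cdk6, a partner of the D cyclins, had 10.12, 11.14 and 11.89 in tumours, against 4.22, 4.99 and 6.41 in non-tumour tissue (6.12 ± 0.31 (SE), adjusted p = 4.72e-15), while its relative Cdk4 rose by 2.80 and Cdk2 by 2.89. The inhibitor Cdkn2c rose too (2.39), and Cdkn1a, the p53 target p21, differed by -0.11 (adjusted p = 0.840). Of 11 Myc, Mycn and Mxd genes 4 rose (36.4%, against 22.5% of all genes tested) and 2 fell (18.2%, against 19.2%). The median of this list was 0.08, against 0.11 over all genes. All 3 proliferative Myc genes were among those that rose. Mycl was at the floor on 5 of 6 non-tumour arrays and 8.26 to 8.80 in tumours (at least 5.19, adjusted p = 3.62e-15), and Myc, also at the floor on 5, was 5.52 to 6.52 in tumours (at least 2.44, adjusted p = 4.19e-07). Max, their shared partner, fell by 1.53 (adjusted p = 0.0167), a call lost without tumour 4 (-1.15, adjusted p = 0.0601), which sat at the floor.

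The Polycomb methyltransferases moved in opposite directions: Ezh2, the form of dividing cells, had 7.13, 9.81 and 10.16 in tumours, against 6.09, 6.32 and 7.25 in non-tumour tissue (2.91, adjusted p = 8.07e-07), and Ezh1, the form of resting cells, had 6.75, 7.18 and 7.51 in tumours, against 8.05, 8.30 and 8.87 in non-tumour tissue (-1.24, adjusted p = 3.93e-05). For Ezh2 the single overlap was tumour 4, at 7.13, against the Ptc1+/- array at 7.25. Of 18 chromatin genes on that list 10 rose and 1 fell (5 and 3 with the deposited values). Among ribosome biogenesis genes 7 of 14 rose and none fell (3 higher with the deposited values), led by the small nucleolar ribonucleoprotein genes Nop58 (2.11) and Fbl (1.85).

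**Figure D3:**
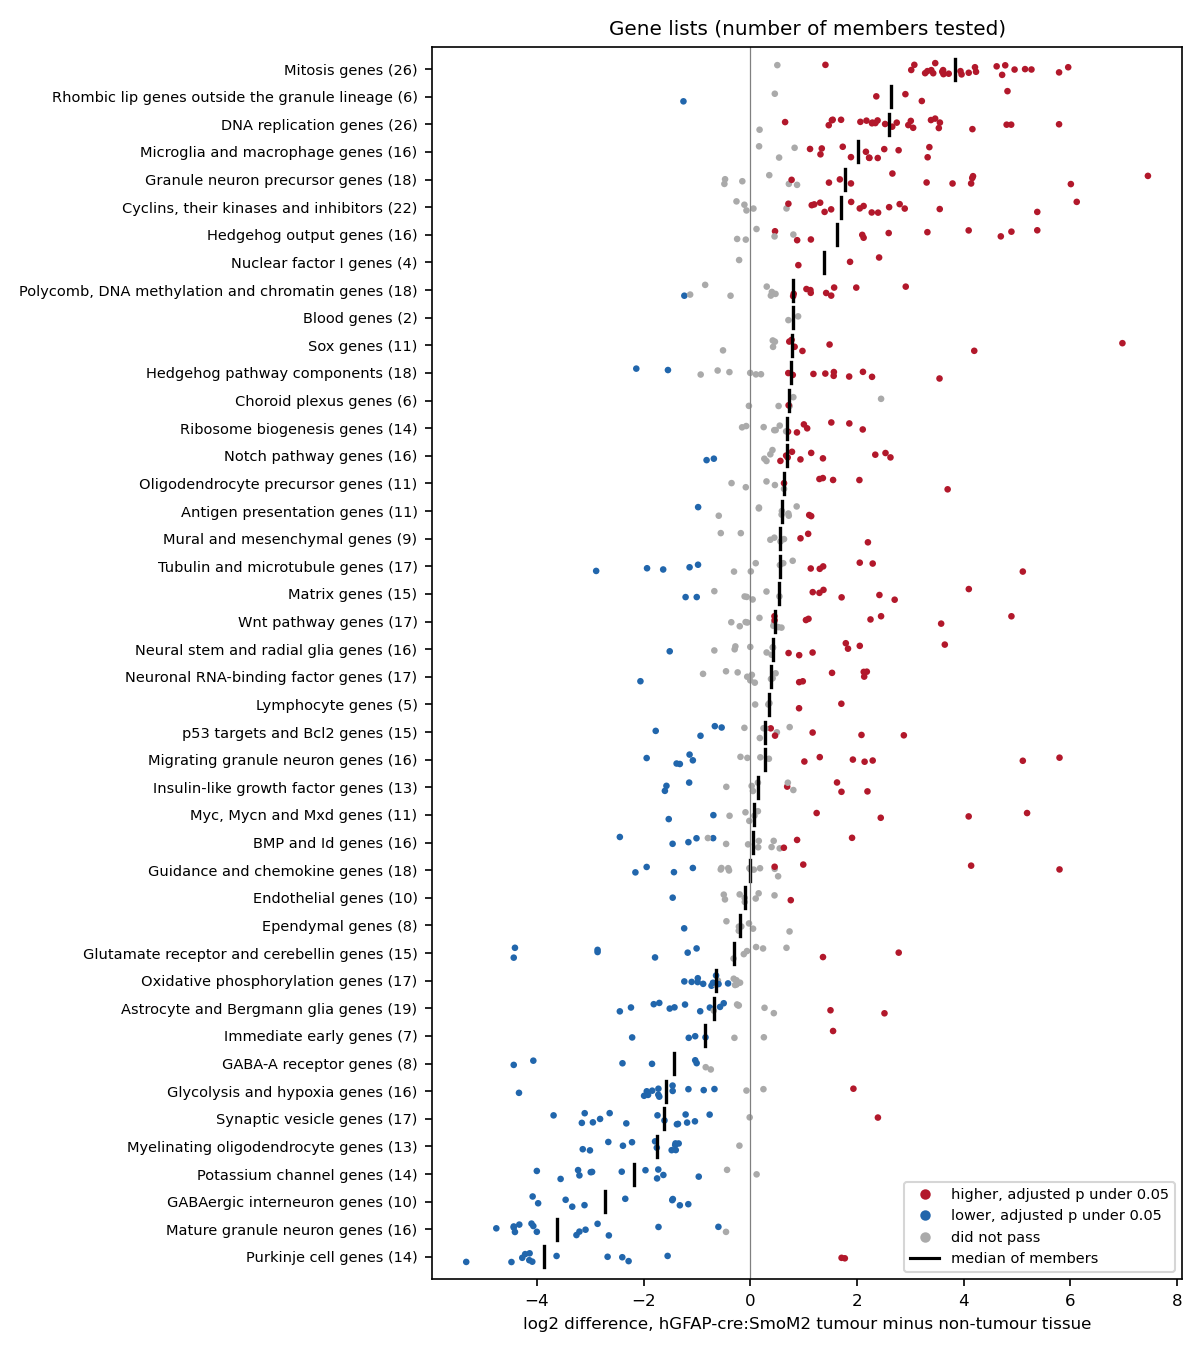
Log2 difference of the tumours from non-tumour tissue (horizontal axis) for every tested member of the 44 gene lists, 1 row per list ordered by its median (black bar); red and blue points passed the test and grey points did not. Mitosis genes (median 3.83) are at the top, and mature granule neuron genes (-3.63) and Purkinje cell genes (-3.86) at the bottom.

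Genes of mature cerebellar neurons fell together. Of 16 mature granule neuron genes 15 fell and none rose (median -3.63), of 14 Purkinje cell genes 12 fell and 2 rose (median -3.86), and all 10 interneuron genes tested fell (median -2.73). Gabra6, the GABA receptor subunit that defines mature granule neurons, had 6.51, 8.12 and 9.83 in tumours, against 12.20, 12.47 and 12.97 in non-tumour tissue (-4.43 ± 0.68 (SE), adjusted p = 4.49e-06). Cbln3, a granule-specific synaptic organiser, had 5.92, 7.11 and 9.03 in tumours and 11.66, 11.77 and 12.24 in non-tumour tissue (-4.41, adjusted p = 1.54e-06). Grin2c, the mature NMDA receptor subunit of these cells, had 3.50, 4.31 and 7.12 in tumours and 8.84, 9.26 and 9.62 in non-tumour tissue (-4.43, adjusted p = 2.73e-06). None of these 3 overlapped between groups, yet none reached the floor in any tumour. The granule genes that moved least were Zbtb18 (-0.60, adjusted p = 9.36e-03) and Rbfox3, the NeuN gene, at 11.17 to 12.02 in tumours and 11.71 to 12.43 in non-tumour tissue (-0.46, adjusted p = 0.165). Rbfox3 gained a call under 7 of 32 alternatives, over which its difference was -1.20 to -0.37. Zbtb18 lost its call without the Olig2-tva-cre controls (-0.42, adjusted p = 0.104) and without the arrays of high 3' to 5' ratio (-0.44, adjusted p = 0.106).

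For Purkinje cells, Pcp2 had 5.63, 8.52 and 8.81 in tumours, against 11.90, 12.55 and 12.84 in non-tumour tissue (-4.48 ± 0.66 (SE), adjusted p = 2.29e-06), and Calb1, their calcium buffer, had 5.14, 8.47 and 9.40 in tumours and 12.12, 12.19 and 12.55 in non-tumour tissue (-4.14, adjusted p = 2.53e-06). Slc1a6 was at the floor in 3 of 6 tumours and 8.06 to 9.47 in non-tumour tissue, so its difference of -5.32 (adjusted p = 6.19e-13) is a bound. The members called the other way were Foxp2 (9.02 to 9.70 in tumours, 7.35 to 7.88 in non-tumour tissue, 1.77, adjusted p = 1.99e-06) and Lhx1 (9.46 to 10.41 in tumours, 7.69 to 8.71 in non-tumour tissue, 1.71, adjusted p = 1.73e-07), both transcription factors that other neurons use too. Among interneuron genes, Gad1, the GABA-synthesising enzyme, had 4.33, 7.57 and 8.41 in tumours and 10.86, 11.24 and 11.47 in non-tumour tissue (-3.98, adjusted p = 2.98e-05), and Pvalb had 7.43, 8.21 and 8.63 in tumours and 11.84, 12.33 and 12.52 in non-tumour tissue (-4.08, adjusted p = 1.44e-09). The summed signal was 5595 to 11934 in tumours, against 37571 to 51826 in non-tumour tissue for the granule list and 2526 to 6593 in tumours, against 28098 to 39110 in non-tumour tissue for the Purkinje list; how far these sums bear on the genes that rose was not tested.

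Synaptic and excitability genes fell as well: 15 of 17 synaptic vesicle genes, 12 of 14 potassium channel genes and 6 of 8 tested GABA-A receptor genes. Vamp1, a vesicle SNARE, fell by 3.69, the calcium sensor Syt1 by 3.16, and the A-type channel gene Kcnd2 by 4.00 on the log2 scale. Stx1a, the plasma membrane SNARE, was the 1 vesicle gene that rose, with 8.11, 8.51 and 8.82 in tumours and 5.30, 6.08 and 6.91 in non-tumour tissue (2.39, adjusted p = 1.93e-08). Glutamate receptors were mixed, 2 higher and 7 lower of 15: the cerebellin gene Cbln4 (2.78) and the metabotropic receptor gene Grm5 (1.36) rose.

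Glia showed 3 patterns. Myelin genes fell, 12 of 13 with a median of -1.75: Mbp had 9.23, 10.22 and 10.92 in tumours, against 12.31, 12.87 and 13.15 in non-tumour tissue (-2.66, adjusted p = 1.47e-04), and Mog was at the floor in 5 of 6 tumours, so its difference of -3.14 is a bound. Oligodendrocyte precursor genes did not follow them, with 6 of 11 higher and none lower (3 higher with the deposited values). Pdgfra, the growth factor receptor of these precursors, had 9.32, 9.91 and 10.90 in tumours, against 5.70, 6.30 and 6.73 in non-tumour tissue (3.70 ± 0.26 (SE), adjusted p = 2.96e-12), and Olig2 had 6.17, 7.09 and 7.84 in tumours and 4.46, 4.79 and 6.14 in non-tumour tissue (2.04, adjusted p = 2.79e-05). Sox10, present in the whole lineage, differed by 0.46 (adjusted p = 0.215). Of 19 astrocyte and Bergmann glia genes 11 fell and 2 rose. Gdf10, which marks Bergmann glia, fell to 5.81 to 7.15 in tumours, against 8.57 to 9.43 in non-tumour tissue (-2.45, adjusted p = 4.35e-07), while Aqp4, the astrocyte water channel, differed by 0.27 (adjusted p = 0.400) with overlapping groups. Gfap, the astrocyte filament raised in reactive tissue, had 9.91, 12.13, 11.79, 9.87, 10.64 and 8.75 in tumours 1 to 6 and 7.87, 8.11, 6.44, 6.92, 8.83 and 9.84 in non-tumour arrays 1 to 6 (2.51 ± 0.59 (SE), adjusted p = 8.71e-04). Tumours 2 and 3 were the highest, and tumour 6 lay below non-tumour arrays 5 and 6.

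Neural stem and radial glia genes rose in 7 of 16 cases and fell in 1, with a median of 0.42 that became -0.02 with the deposited values, where 4 were higher and 2 lower. Fabp7, the fatty acid binding protein of radial glia, had 10.31, 10.93 and 12.19 in tumours, against 6.59, 9.68 and 10.20 in non-tumour tissue (1.83, adjusted p = 9.50e-04), and Hes5, a Notch target, rose by 1.79. Hopx, shared by stem cells and Bergmann glia, was the member that fell (-1.51, adjusted p = 3.17e-03), a call lost without the arrays of high 3' to 5' ratio (-0.89, adjusted p = 0.0774). Nes, the stem cell filament, differed by -0.29 (adjusted p = 0.465) on its brightest probe set and by 1.93 (adjusted p = 1.82e-05) on the most variable one, so its direction depends on the probe set. Notch pathway genes were higher in 10 of 16 and lower in 2, but higher in 3 and lower in 2 with the deposited values. The ligand gene Jag1 rose by 2.53 and Numb, an inhibitor of Notch, fell by 0.82.

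Macrophage and microglia genes rose in 13 of 16 cases and none fell (median 2.03), and their summed signal was 5168 to 12609 in tumours, against 1719 to 2675 in non-tumour tissue. C1qc, a complement gene of these cells, had 8.63, 9.44 and 10.28 in tumours, against 5.45, 6.34 and 6.82 in non-tumour tissue (3.36 ± 0.30 (SE), adjusted p = 4.34e-10). Lyz2, the lysozyme of activated macrophages, had 11.43, 10.75, 11.51, 9.46, 8.90 and 8.30 in tumours 1 to 6, against 6.62 to 7.04 in non-tumour tissue (3.32, adjusted p = 2.47e-07). It was highest in tumours 1 to 3. The 3 that did not pass included genes of resting microglia, P2ry12 at 0.54 (adjusted p = 0.178) and Tmem119 at 0.16 (adjusted p = 0.686). Of 11 antigen presentation genes 2 were higher (18.2%, against 22.5% of all genes tested) and 1 lower (9.09%, against 19.2%). This count was 5 and 1 without the arrays of high 3' to 5' ratio and 0 and 2 with the deposited values. H2-Aa, a class II chain, had 9.22, 7.75, 8.55, 6.67, 5.86 and 5.89 in tumours 1 to 6, against 5.58 to 6.49 in non-tumour tissue (1.10, adjusted p = 0.0413), a call lost under 18 alternatives that kept more than 1 non-tumour array, among them leaving out tumour 1 (0.72, adjusted p = 0.148), tumour 2, tumour 3 or any non-tumour array but number 2, and the class I gene H2-D1 fell by 0.98 (adjusted p = 6.48e-03). Ptprc, the CD45 antigen of all leukocytes, rose by 1.71. Lcn2, an iron-binding protein of reactive glia and neutrophils, had 8.87, 9.64, 10.03, 9.39, 3.53 and 3.37 in tumours 1 to 6 and 3.37 to 4.15 in non-tumour tissue (3.92, adjusted p = 9.07e-04): it was high in tumours 1 to 4 and at or near the floor in tumours 5 and 6.

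Of 10 endothelial genes 1 was higher (10%, against 22.5% of all genes tested) and 1 lower (10%, against 19.2%). The higher one was the growth factor receptor gene Kdr (0.76), whose call was lost when any of tumours 2, 4, 5 and 6 or non-tumour arrays 1, 2, 4 and 6 was left out. Cldn5, the tight junction gene of brain vessels, differed by -0.11 (adjusted p = 0.785). Slc2a1, the glucose transporter, fell to 7.05 to 7.93 in tumours, against 8.56 to 9.56 in non-tumour tissue (-1.46, adjusted p = 3.42e-06). Matrix genes were higher in 7 of 15 and lower in 2. Ncan, a proteoglycan of immature brain matrix, had 10.69, 11.34 and 12.37 in tumours, against 7.11, 7.26 and 7.55 in non-tumour tissue (4.09 ± 0.42 (SE), adjusted p = 4.46e-09), and Col4a1, of basement membranes, had 8.33, 9.21 and 10.27 in tumours and 6.19, 6.56 and 7.62 in non-tumour tissue (2.70, adjusted p = 3.22e-07), both apart between the groups. Of 6 choroid plexus genes 1 rose (16.7%, against 22.5% of all genes tested). Ttr, the most abundant choroid product, was 3.37, 12.92, 13.29, 12.13, 12.22 and 3.37 in tumours 1 to 6 and 6.21, 6.79, 7.13, 5.35, 13.23 and 3.90 in non-tumour arrays 1 to 6 (difference 2.45, adjusted p = 0.396), with the highest values in tumours 2 to 5 and non-tumour array 5.

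Energy metabolism genes fell: 13 of 16 glycolysis and hypoxia genes (median -1.58) and 10 of 17 oxidative phosphorylation genes (median -0.64). Eno2, the enolase of neurons, had 5.59, 6.67 and 7.62 in tumours, against 10.52, 10.97 and 11.12 in non-tumour tissue (-4.34 ± 0.51 (SE), adjusted p = 5.48e-08), and the phosphofructokinase gene Pfkm fell by 1.84. Hk2, the hexokinase of proliferating cells and a gene that Hedgehog induces in mouse granule precursors, was the 1 member that rose, with 8.75, 9.23 and 9.89 in tumours and 7.02, 7.30 and 7.42 in non-tumour tissue (1.93, adjusted p = 4.34e-08). Ldha differed by 0.25 (adjusted p = 0.474). Sdha, of complex II, fell by 1.10 (adjusted p = 1.77e-05).

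The 6 tumours differed from each other in what they held besides the shared programme. Tumour 2 was the lowest tumour for 13 of 16 mature granule neuron genes, and tumours 1 and 4 were the highest for 8 and 7. Gabra6 was 9.83, 6.51, 7.41, 8.32, 8.57 and 7.92 in tumours 1 to 6. Tumour 3 was instead the lowest for 7 of 14 Purkinje genes: Pcp2 was 8.81, 8.41, 5.63, 8.62, 8.81 and 7.71, Car8 9.96, 7.20, 4.70, 9.41, 9.28 and 8.68 and Gad1 8.41, 7.10, 4.33, 8.40, 8.05 and 7.07 in tumours 1 to 6. Tumour 3 lay at least 2 log2 units below every other tumour for Pcp2, Car8 and Gad1. Every tumour lay below every non-tumour array for these genes.

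Olig3, a factor of the dorsal hindbrain neuroepithelium, divided the tumours: it was 9.80, 8.53, 8.17, 5.21, 5.01 and 4.68 in tumours 1 to 6 and 3.37 to 5.06 in non-tumour tissue (2.91, adjusted p = 6.77e-03), so tumours 1 to 3 were high and tumours 5 and 6 lay within the non-tumour range. Hoxb3, a hindbrain segment gene, was 4.75, 8.12, 10.39, 6.08, 5.77 and 5.01 in tumours 1 to 6, against 3.37 to 5.64 in non-tumour tissue (difference 2.25, adjusted p = 0.0609), and Hoxb2 was 5.27, 7.71, 9.06, 4.03, 5.86 and 3.63 in tumours 1 to 6, against 4.58 to 5.92 in non-tumour tissue (difference 0.71, adjusted p = 0.516). Both were highest in tumour 3 and next in tumour 2, and without tumour 3 the difference of Hoxb2 was 0.08. Mfap4, a matrix protein, was at the floor in tumours 1 and 4 and on all 6 non-tumour arrays, and 7.25, 8.18, 7.60 and 6.42 in the other tumours. Pfn1 was at the floor in tumour 4 and 5.88 in tumour 6, the tumours of high 3' to 5' ratio, against 7.97 to 8.81 in the other tumours and 7.06 to 8.27 in non-tumour tissue (difference -0.53, adjusted p = 0.631, or 0.20 without tumour 4). The part of RNA quality in these differences among tumours was not tested.

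**Figure D4:**
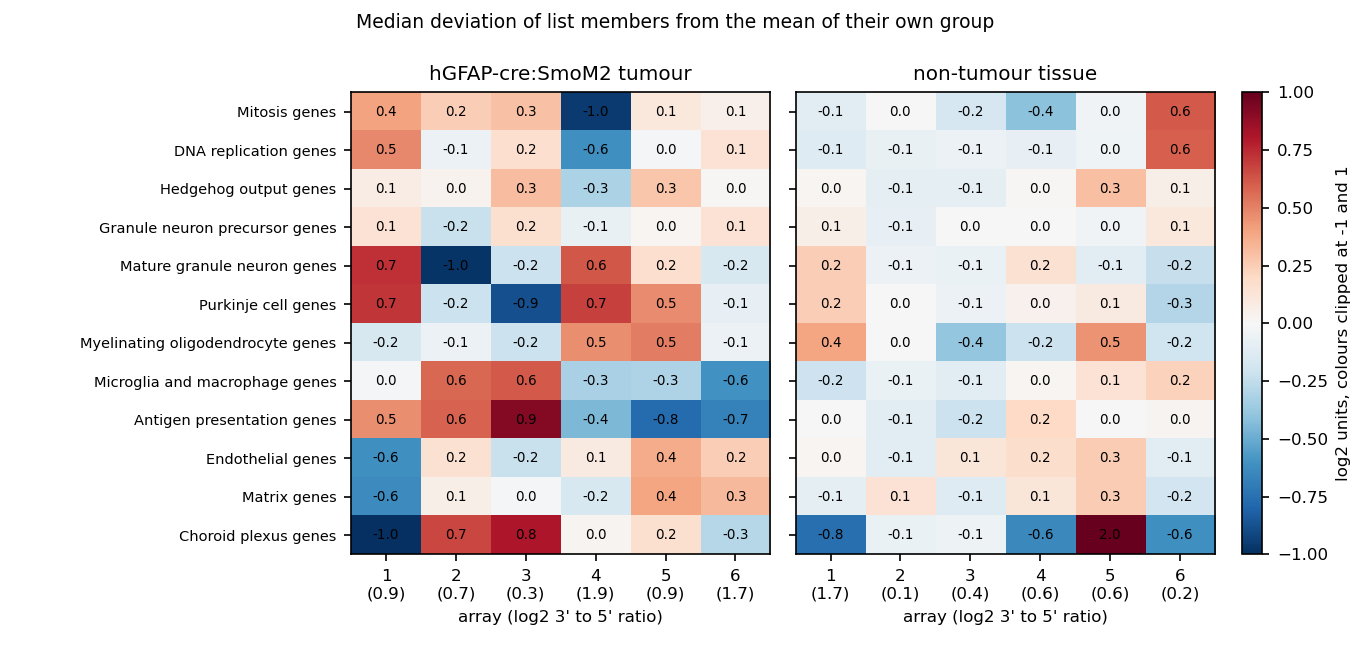
Median deviation (log2) of the members of 12 gene lists from the mean of their own group, for each tumour (left) and each non-tumour array (right), with the 3' to 5' ratio of the array in parentheses. Tumour 4 is low for mitosis genes (-0.95), tumour 2 for mature granule neuron genes (-0.98) and tumour 3 for Purkinje cell genes (-0.88), and the Ptc1+/- array, number 6, is high for mitosis genes (0.61) among non-tumour arrays.

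Only 1 non-tumour array came from the same line as the tumours. Set against that array alone, the median difference over all genes was 0.04, against 0.11 with all 6 non-tumour arrays. The array is 1 of those 6 and the tumours are the same, so much of any agreement between the 2 comparisons is built in. Calls against it assumed the spread of the single array to be that of the other groups. The granule precursor list then had 9 members higher, the Hedgehog output list 7, the mitosis list 25 and the mature granule list 12 lower. Other lists kept fewer calls: 3 Notch genes and 2 stem cell genes were higher, and 4 myelin genes, 4 astrocyte genes, 2 oxidative phosphorylation genes and 2 GABA-A receptor genes were lower. That array lay within the range of the other controls for Gli1 (5.78) and Atoh1 (5.71). For Gabra6 (12.20) it lay at the low end of the non-tumour range, which was 12.20 to 12.97.

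Against the mean of the 3 other SmoM2 tumour groups, 185 genes were called (1.37%), 120 higher (0.887%) and 65 lower (0.481%) in hGFAP tumours, with a median over all genes of 0.07. This count was unstable: it was 23 without tumour 2 (22 of them among the 185), 635 without Olig2-tva-cre tumour 3, 6 with the 3' to 5' ratio as a covariate and 865 with array weights. The median 3' to 5' ratio was 0.89 in hGFAP tumours, 0.11 in Math1-cre, 0.37 in Tlx3-cre and 0.13 in Olig2-tva-cre tumours. The deposited trimmed mean was under 85 on 5 Olig2-tva-cre arrays and 1 hGFAP array. The part of RNA quality in these calls was not tested further. With the deposited values 4 genes were called, Itih3 higher and BC034090, Mir124-2hg and Adck5 lower. Of the list of Hedgehog outputs Gli3 was higher and Sfrp1 lower, of the granule precursor list Mfap4 was higher, while Gli1 differed by -0.66 (adjusted p = 0.216) and Atoh1 by -0.49 (adjusted p = 0.418). Gli3 was 6.66 to 8.04 in hGFAP tumours and 4.50 to 7.01 in the other SmoM2 tumours (1.82 ± 0.27 (SE), adjusted p = 9.52e-04). Of the other lists, 3 of 19 astrocyte genes, 2 of 15 matrix genes and 2 of 9 mural and mesenchymal genes were higher and none lower. Gja1 (1.69), the astrocyte gap junction gene, lost its call under 6 of 42 alternatives, the matrix gene Lama2 (1.49) under 5 of 41, and Pdgfrb (1.25), the receptor of mural cells, under 10 of 41. Fbln5 (1.86), an elastic fibre protein, lost it under 12 of 41 and Mfap4 (2.40) under 28 of 41. Lower were BC034090 (-3.02), Mir124-2hg (-2.05), the host transcript of a neuronal microRNA, Sfrp1 (-0.88) and Pdgfra (-0.93). Sfrp1 and Pdgfra were called higher than in non-tumour tissue, in a comparison that shares the hGFAP arrays, and their calls against the other SmoM2 tumours were lost under 16 of 42 alternatives (adjusted p up to 0.242) and 20 of 42 (up to 0.174). Grb10, an imprinted growth inhibitor, was 5.96 to 9.39 in hGFAP tumours and 4.85 to 7.62 in the other tumours (1.98, adjusted p = 9.28e-03), and it did not pass against non-tumour tissue (0.27, adjusted p = 0.62).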

How the data were processed

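Per the labels' protocols, RNA came from Trizol followed by an RNeasy clean-up, and 5 µg of total RNA was labelled as biotinylated cRNA for Affymetrix mouse arrays. The deposited table holds 1 linear signal intensity per probe set and array, made by the authors with MAS5 per the submitters' processing notes; further settings are not given in the sources used here. Samples were grouped by title, and the series calls its replicates biological. Each array was scaled to a common 2% trimmed mean (124), signals under the 20th percentile (10.3) were set to it, and log2 was taken. Probe sets above the table's median on at least 3 arrays were kept (30107), those with no or several gene names left out, and the brightest probe set read each gene (13527 genes). Gene names come from the platform annotation. A model of 6 group means over all 27 arrays was fitted in limma 3.58.1 (R 4.3.3) with trended, robust variance moderation and Benjamini-Hochberg adjustment over all genes. Gene lists are described by counts and medians beside those of all genes. Members and lists were chosen with earlier results of these data known. The text names key pathway and cell type genes, the largest differences, the ends of each list and the genes called against their list's direction, with a few added after their values were seen. On simulated data with genes changed by known amounts among 13527, the fit recovered 94 of 100 changed by 2 log2 units and 47 of 100 changed by 1, with 13 false calls. The simulation left 13327 genes unchanged and gave each gene independent noise of the same spread in all groups. It held no differences in scaling or RNA quality, so these rates need not hold for the real arrays. The ratio of control probe sets was tested by exact permutation. Alternatives changed the scaling, floor, filter, probe set choice, model and arrays. The number of arrays limits the precision.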

Additional observations from a re-analysis of the deposited data

Results flagged for a closer look

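In a group of 6 arrays, an array was singled out where its gap to the nearest other array exceeded the 95% critical value of Dixon's test. About 1 in 20 groups of independent normal values would be singled out, which is 21.6 of the 432 tests run, and 41 were. That rate does not hold here, because values tie at the floor, genes share arrays and some genes were picked for a wide range. The 2 counts therefore do not measure an excess over chance. For Kif7, Mycl, Myc, Psrc1, Mog and Kl the other arrays of the group all sat at the floor, so any value above it was singled out. Tumour 4, of the 12 arrays the dimmest and the one of highest 3' to 5' ratio, accounted for 9. It was the lowest tumour for Gli1 (6.36), the co-receptor gene Boc (7.78), Max (3.37, the floor), Rassf4 (8.26), Rrm2 (9.63), Ezh2 (7.13), Numb (6.93) and the ribosomal protein gene Rps19 (9.87), and the highest for Mog (3.70). Tumour 3 was the lowest for the neuronal genes Pcp2 (5.63), Calb1 (5.14) and Gad1 (4.33) and for Nfia (11.74). Vamp1 was lowest in tumour 2 (3.63), and Sox2 highest in tumour 5 (8.52).

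Among non-tumour arrays, the Ptc1+/- array accounted for 12. It was the highest for the precursor and dividing-cell genes Insm1 (6.73), Myc (4.65), Top2a (6.40), Cdca3 (5.06) and Ezh2 (7.25), and also for Itih3 (9.93). It was the lowest for Slc1a6 (8.06), Hopx (10.09), H2-Aa (5.58), Ndufa4 (10.71), the radial glia gene Fabp7 (6.59) and the collagen gene Col3a1 (4.68). Non-tumour array 5, from the Mxi1-cre line, was the highest for the choroid plexus genes Ttr (13.23) and Kl (7.59) and for Sfrp2 (6.20) and Robo2 (4.63). Array 1 was the highest for Mycl (3.45), Cntn1 (12.06) and the 3' to 5' ratio (1.75) and the lowest for Ptbp1 (6.23). Array 2 was the highest for Kif7 (5.49) and Lyz2 (7.04) and the lowest for Bcl2 (6.04), and array 4 the highest for Psrc1 (4.08) and Ptprc (5.54) and the lowest for Aurkb (3.88).

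The named genes that passed limma's test of the difference between hGFAP tumours and the other SmoM2 tumours are given with that log2 difference. Higher in hGFAP tumours were Gli3 (1.82), Mfap4 (2.40), Itih3 (2.06), Grb10 (1.98), Fbln5 (1.86), Cilp2 (1.79), Ccn3 (1.73), Pcdh17 (1.70), Gja1 (1.69), Lama2 (1.49), Pdgfrb (1.25), Wnt5a (1.14), Csf1r (0.90), Lhx1 (0.76) and Slc1a3 (0.64). Lower were BC034090 (-3.02), Mir124-2hg (-2.05), Adck5 (-1.42), Tmem121 (-1.41), Lrba (-1.25), Gnb2 (-1.23), Rps19 (-1.21), Exosc5 (-1.18), Fzd2 (-0.99), Pdgfra (-0.93) and Sfrp1 (-0.88). Calls in both directions were lost under some of the 41 or 42 alternatives run. Losses were 32 for Exosc5 and Gnb2, 31 for Pcdh17, 26 for Rps19, 22 for Lhx1 and 20 for Fzd2. Slc1a3 lost its call under 17 and reversed under 1, Tmem121 lost it under 15, Cilp2 under 13, Wnt5a under 12 and Lrba under 8. Itih3 and Adck5 kept theirs under all 42. Outside the named genes, 1597 of 5355 probe sets with no single gene name passed the test between hGFAP tumours and non-tumour tissue.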

How the results depend on the processing

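Against non-tumour tissue, the count of called genes stayed within 1.5 times that reported under all alternatives run except that against the hGFAP-line control alone, which gave 1906 called, 1055 higher, 851 lower and 1882 at 2-fold, from fewer arrays. The count of higher genes was 983 with the deposited values. Leaving out each array in turn gave 5208 to 5562 called, 2784 to 3054 higher, 2424 to 2565 lower and 3268 to 3389 at 2-fold. Against the other SmoM2 tumours the counts were 4 (1 higher and 3 lower) with the deposited values, 60 (36 higher and 24 lower) with quantile normalization, 338 (43 higher and 295 lower) with a common median, 350 (240 higher and 110 lower) with a floor at the 35th percentile, 40 lower with no filter on low signals, 94 (47 higher) with a stricter filter, 20 (13 higher and 7 lower) with those groups alone, 865 (507 higher and 358 lower) with array weights, 400 (235 higher and 165 lower) without arrays of high 3' to 5' ratio, 6 (4 higher and 2 lower) with that ratio as a covariate, 680 (413 higher and 267 lower) without arrays under a trimmed mean of 85, and, leaving out each array of the groups in turn, 23 to 635 called, 16 to 410 higher and 5 to 246 lower. The cause was not tested, beyond the fewer arrays or genes where the alternative leaves them out. Same-numbered arrays share only a number: their deviations correlated at -0.0931 to 0.213, 2 of 6 pairs best with their own number. With the replicate number as a block 5715 genes were called against non-tumour tissue and 177 against the other SmoM2 tumours. The difference in 3' to 5' ratio was 0.27 to 0.66 as each array was left out. Of single genes, 6496 values against non-tumour tissue kept direction and call, 182 lost the call, 61 gained one and 4 reversed. The reversals were Nes at 1.52 with no floor, 0.82 as the mean of probe sets and 1.93 on the most variable probe set, and Kdr at -0.19 against the hGFAP-line control. Against the other SmoM2 tumours 746 kept direction and call, 335 lost the call, and Slc1a3 reversed to -0.53 on its most variable probe set. Alternatives chosen after seeing the data were the ratio read from Gapdh or Actb alone (0.80 and 0.07), the other SmoM2 arrays left out in turn, and the list counts. With the deposited values the medians of the stem, Myc, BMP, insulin-like growth factor, p53, lymphocyte, migrating granule neuron and RNA-binding lists turned negative. Differences near background are limited by the floor and by 6 arrays a group.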

Other observations

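For comparison with the lists that follow, 22.5% of all genes tested were higher and 19.2% lower. The shares of the guidance and chemokine, insulin-like growth factor, p53 and BMP lists lie near these. Of 17 Wnt pathway genes 8 rose and none fell (4 and 0 with the deposited values, 6 and 1 with arrays set to a common median). The secreted inhibitor gene Sfrp2 had 7.94, 8.93 and 9.75 in tumours (lowest, median and highest), against 4.89, 5.20 and 6.20 in non-tumour tissue (3.58, adjusted p = 8.84e-11), whereas Axin2, the usual readout of canonical Wnt signalling, differed by -0.09 (adjusted p = 0.823). BMP and Id genes had 3 higher (18.8%) and 5 lower (31.2%) of 16: Id3 rose by 1.91 and Id4, a partner that holds back differentiation factors, fell by 1.46. The insulin-like growth factor list had 4 higher (30.8%) and 3 lower (23.1%) of 13, with the adaptor gene Irs1 at 2.20 and the receptor gene Igf2r, which clears Igf2, at -1.60. Of p53 targets and Bcl2 genes, 5 higher (33.3%, or 2 genes with the deposited values) and 4 lower (26.7%) of 15, Eda2r rose by 2.88 and Trp53inp1 by 2.08, while Plk2 fell by 1.77 and Mdm2 differed by 0.18. Activity-driven immediate early genes had 1 higher and 4 lower of 7: Egr1 had 6.60, 6.95 and 8.07 in tumours, against 8.78, 9.48 and 9.61 in non-tumour tissue (-2.21, adjusted p = 5.35e-06).

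Neuronal RNA-binding factor genes had 6 higher and 1 lower of 17 (3 and 1 with the deposited values). Ptbp1, the splicing repressor of precursors, had 7.75, 9.76 and 10.56 in tumours, against 6.23, 7.53 and 7.92 in non-tumour tissue (2.13, adjusted p = 1.07e-04), and Rbfox1, of mature neurons, fell by 2.06. Guidance and chemokine genes had 4 higher (22.2%) and 4 lower (22.2%) of 18 (2 and 5 with the deposited values), with Epha8 at -2.15. Of 9 mural and mesenchymal genes 3 rose (1, with 1 lower, with the deposited values), led by Col3a1 (2.20), and of 8 ependymal genes 1 fell and none rose. Lymphocyte genes had 2 higher and 0 lower of 5 and blood genes 0 higher and 0 lower of 2.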
